A study of Mus musculus with 12 samples.

Results

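The 6 genes described here, of 24736 in the deposited table, are the mouse fibroblast growth factor (FGF) receptors Fgfr1, Fgfr2, Fgfr3, Fgfr4 and Fgfrl1 and the co-receptor gene Klb. They were picked by name as the receptor family, and values of 3 of them had been seen in these data before. Fgfr1 and Fgfr2 were selected on a contrast between epiblast and endoderm and on the chromosome of Fgfr1, and Klb had ranked among the genes with the largest increase in SOX2-ON. For these 3 genes the values below chose the members and are a description, with no test. Fgfr3, Fgfr4 and Fgfrl1 came in with the family name and were tested.

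RNA was sequenced from 12 cultures of differentiating mouse embryonic stem (ES) cells at 72 h, in 4 groups of 3 libraries, numbered 1 to 3 in each group. All cultures received bFGF at 10 ng/ml and LGK974, a blocker of WNT secretion, at 5 µM, so every group was exposed to added FGF. EpiLC were wild-type (WT) cells in this medium alone, an epiblast-like state. CEpiLC were WT cells that also received CHIR99021, a GSK3 inhibitor that turns on WNT signalling, from day 2 to day 3, and stand for the caudal epiblast. SOX2-OFF and SOX2-ON were the SOX2 TetON line with CHIR99021 over the same days. In that line both endogenous Sox2 alleles were ablated and a doxycycline-inducible Sox2 transgene in the Hprt locus was driven by an activator expressed from Rosa26. Doxycycline was withdrawn in SOX2-OFF and kept at 1 µg/ml in SOX2-ON. The line was made by gene editing and clone picking from the HM1 TetON ES cells that served as WT, and ES cells were kept on fibroblast feeders before plating. SOX2 TetON cells without CHIR99021 were not analysed here. The cells of SOX2-OFF and SOX2-ON therefore differ from CEpiLC in line as well as in Sox2, and these cannot be told apart in a comparison with CEpiLC. SOX2-ON alone received doxycycline during differentiation, and there was no WT group with it. In comparisons of SOX2-ON with CEpiLC or SOX2-OFF, the drug and Sox2 cannot be told apart either.

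FGF receptors are receptor tyrosine kinases. An FGF ligand and heparan sulfate chains bring receptor molecules together at the cell surface, and the activated kinase passes the signal through the adaptor FRS2 to the RAS-ERK and PI3K cascades. In the mouse embryo Fgfr1 is the main receptor of the epiblast and is needed for cells to leave the primitive streak, whereas Fgfr2 is known in trophoblast and, with Fgfr1, in primitive endoderm. Fgfr3 and Fgfr4 are usually weaker in the early embryo, and Fgfr4 is known in endoderm and liver. Fgfrl1 binds FGF ligands but lacks the tyrosine kinase domain. Klb encodes beta-Klotho, a membrane protein without a kinase of its own, which lets FGFR1 or FGFR4 respond to the endocrine ligands FGF15 and FGF21.

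On the GRCm38.p6 assembly, Fgfr1 lies at chr8:25518759-25575718, Fgfr2 at chr7:130162451-130266808 and Fgfr4 at chr13:55152818-55168759. The other 3 genes share a chromosome but are far apart on it, with Fgfr3 at chr5:33721724-33737068, Klb at chr5:65348411-65386957 and Fgfrl1 at chr5:108694229-108706950. All are protein-coding genes. A single value per gene does not separate the IIIb and IIIc splice forms of Fgfr1 to Fgfr3, which bind different ligands.

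RefSeq promoter sequence of this build matched 5 of the 6 genes. The 250 bases before the annotated start are shown for the genes whose levels differed most between groups and, for contrast, for the kinase-less Fgfrl1, 5′ to 3′ on the strand of the gene. Capitals mark CpG dinucleotides. The windows are Fgfr2 at chr7:130266809-130267058 (minus strand), Klb at chr5:65348161-65348410 (plus strand), Fgfr4 at chr13:55152568-55152817 (plus strand) and Fgfrl1 at chr5:108693979-108694228 (plus strand).
Fgfr2: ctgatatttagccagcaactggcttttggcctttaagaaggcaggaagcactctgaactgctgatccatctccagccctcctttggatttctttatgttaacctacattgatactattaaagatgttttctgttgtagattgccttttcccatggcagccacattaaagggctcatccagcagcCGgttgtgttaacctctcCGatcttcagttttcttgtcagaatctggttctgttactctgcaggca
Klb: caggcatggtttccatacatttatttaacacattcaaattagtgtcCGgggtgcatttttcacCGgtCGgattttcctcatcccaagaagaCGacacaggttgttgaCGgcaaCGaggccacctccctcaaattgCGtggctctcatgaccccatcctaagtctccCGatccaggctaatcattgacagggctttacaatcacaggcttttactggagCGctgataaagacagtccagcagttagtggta
Fgfr4: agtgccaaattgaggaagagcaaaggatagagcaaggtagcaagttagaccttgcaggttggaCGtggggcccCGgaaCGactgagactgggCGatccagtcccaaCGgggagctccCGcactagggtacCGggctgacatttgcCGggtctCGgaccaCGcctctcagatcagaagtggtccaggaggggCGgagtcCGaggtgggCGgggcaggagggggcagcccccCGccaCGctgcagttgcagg
Fgfrl1: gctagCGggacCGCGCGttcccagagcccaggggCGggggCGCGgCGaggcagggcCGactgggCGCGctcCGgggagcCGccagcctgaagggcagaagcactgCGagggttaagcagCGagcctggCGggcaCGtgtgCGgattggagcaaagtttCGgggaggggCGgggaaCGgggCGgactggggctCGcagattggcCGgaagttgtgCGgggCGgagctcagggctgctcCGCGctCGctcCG
The promoters of genes in this family had no common base composition. The Fgfr2 window held 2 CpG and 44.0% G+C, fewer CpG than the median of 6 over the 32817 promoter windows of the same length. The Klb window held 9 CpG, the Fgfr4 window 15 and the Fgfrl1 window 30, the last at 73.6% G+C. The pair of windows at the annotated starts of Fgfr3 held 19 and 24 CpG. Letters of a TCF/LEF core (CTTTGA) and of a SOX core (ATTGTT) were searched on both strands, motifs that can overlap by an end letter, because WNT signalling and Sox2 were the variables of the study. None of the 6 windows of the 5 genes held either, against 13.8% of all windows for the TCF/LEF letters and 9.43% for the SOX letters. This says only that these letters are not in these windows.

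Library totals ranged from 10408252 to 27337740 expected counts, and the shallowest was CEpiLC replicate 3. The edgeR quasi-likelihood test was fitted once over all 12 libraries and 14196 genes, and a gene was called at a Benjamini-Hochberg adjusted p of at most 0.05. All 6 genes passed the filter on low counts. Klb did so only through SOX2-OFF and SOX2-ON, as no EpiLC or CEpiLC library reached the cutoff of 0.553 CPM (counts scaled to library size), and no CEpiLC library reached it for Fgfr4. Within the SOX2 TetON line, Sox2 was high where doxycycline was kept and low where it was withdrawn. Its level was 173.24 to 215.14 TPM (scaled for gene length and depth) in SOX2-ON and 12.27 to 21.19 in SOX2-OFF. In the WT groups, which received no doxycycline, it was 118.67 to 171.27 TPM in EpiLC and 7.78 to 13.67 in CEpiLC. The SOX2-OFF and CEpiLC libraries overlapped, with means of 16.5 ± 4.48 and 10.4 ± 3.01 TPM (SD, n = 3). These values do not separate the transgene from the ablated endogenous gene.

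A large part of the table moved in each comparison, which is the background against which any call on a receptor is read. Between CEpiLC and EpiLC 42.2% of genes were called, 22.1% higher and 20.1% lower. Between SOX2-OFF and CEpiLC 48.5% were called (23.6% higher, 24.9% lower). Between SOX2-ON and CEpiLC 56.5% were called (27.9% higher, 28.6% lower). Between SOX2-ON and SOX2-OFF 28.8% were called (14.8% higher, 14.1% lower). CEpiLC is in 3 of the 4 comparisons, so differences from it are not independent of each other. The median log2 fold change of all genes tested was 0.01 in CEpiLC over EpiLC and -0.01 in each of the other comparisons, the values beside which the list medians below stand.

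Marker genes were used to check the labels and to describe what else differed between the groups. All 12 streak and caudal markers were called higher in CEpiLC than in EpiLC, and their summed level ran from 4.43 to 6.62 TPM in EpiLC, from 1632.22 to 2220.27 in CEpiLC, from 1222.35 to 1448.19 in SOX2-OFF and from 250.04 to 304.82 in SOX2-ON. The 18 endoderm markers (primitive, visceral and early definitive endoderm) summed to 255.85 to 277.79 TPM in EpiLC and 195.45 to 232.54 in CEpiLC. They summed to 1293.41 to 1621.09 TPM in SOX2-OFF and, in SOX2-ON replicates 1, 2 and 3, to 615.59, 713.66 and 1501.25. Of the 16 endoderm markers tested, 15 were called higher and none lower in SOX2-OFF than in CEpiLC, and 13 higher and none lower in SOX2-ON than in CEpiLC, with list medians of 4.57 and 4.33. Between SOX2-ON and SOX2-OFF 1 endoderm marker was higher and 6 were lower (median -0.70). Afp was at 0 or at most 0.17 TPM in every library and Apoa1 was at 0 in 7 of the 12, while Gata6, Gata4, Sox17 and Cubn were present in all SOX2-OFF and SOX2-ON libraries. Of 10 markers of the post-implantation epiblast, 9 were called lower and none higher in CEpiLC than in EpiLC (median -2.30), and their sum was 3314.37 to 3909.81 TPM in EpiLC and 1257.38 to 2187.08 TPM elsewhere. Markers of fibroblasts, the feeder cells, summed to 25.21 to 92.49 TPM over the 12 libraries. Of 10, at most 3 were called higher and at most 2 lower in any comparison. Both counts were reached in SOX2-ON over CEpiLC, where 27.9% of all genes were higher and 28.6% lower. Without SOX2-ON replicate 3, 4 were called higher and 2 lower there. Naive pluripotency markers summed to 27.39 to 57.93 TPM in the WT libraries, 85.08 to 140.85 in SOX2-OFF and 335.39 to 430.33 in SOX2-ON. SOX2-ON replicate 3 thus stood apart from its group in endoderm markers. Without it, none of the endoderm markers was called higher and 13 were lower in SOX2-ON than in SOX2-OFF (median -1.18).

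**Figure D1:**
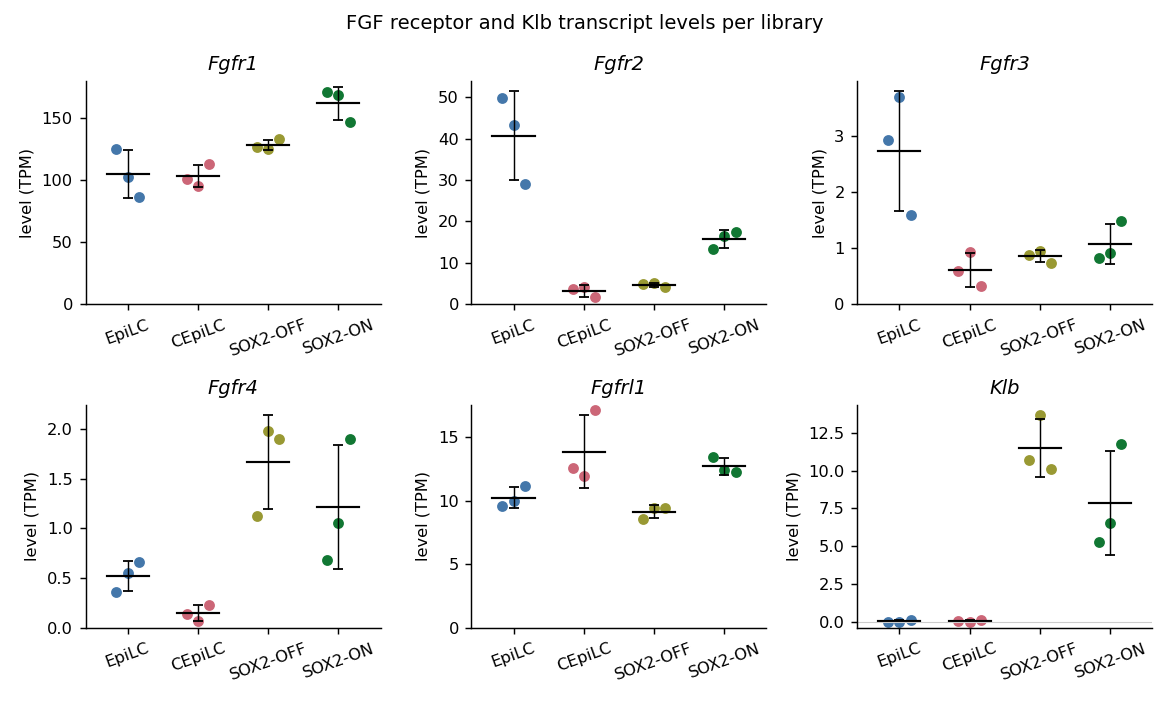
Level in TPM (vertical axes, linear and different in each panel) of the 6 genes in each library, by group. Points are libraries in the order of replicates 1 to 3, and black lines the group mean with its SD (n = 3). Fgfr2 and Fgfr3 are highest in EpiLC, Fgfr4 and Klb are highest in SOX2-OFF and SOX2-ON, and Fgfrl1 is lowest in SOX2-OFF.

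Fgfr1 was the most abundant of the receptors in every library. Its level was 125.2, 102.51 and 86.47 TPM in EpiLC replicates 1 to 3 and 101.17, 95.18 and 112.54 TPM in CEpiLC. In SOX2-OFF it was 126.41, 124.9 and 132.62 TPM, and in SOX2-ON 170.35, 168.42 and 146.24 TPM. EpiLC and CEpiLC overlapped, and all 3 SOX2-ON libraries lay above every other library. The order of group means was SOX2-ON (161.67 ± 13.4 TPM, SD, n = 3), SOX2-OFF (128 ± 4.09), EpiLC (104.73 ± 19.5) and CEpiLC (102.96 ± 8.82), where SOX2-OFF and EpiLC overlapped as well.

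Between CEpiLC and EpiLC the log2 fold change of Fgfr1 was -0.02 (SE 0.12). Relative to CEpiLC, Fgfr1 was 0.33 (SE 0.12) higher in SOX2-OFF and 0.61 (SE 0.12) higher in SOX2-ON on the log2 scale, and SOX2-ON exceeded SOX2-OFF by 0.29 (SE 0.12). Without SOX2-ON replicate 3 the differences of SOX2-ON were 0.70 from CEpiLC and 0.36 from SOX2-OFF. These differences between the lines have to be read with the chromosome. The median log2 fold change of the 471 well-expressed genes of chromosome 8 was 0.62 for SOX2-OFF over CEpiLC and 0.59 for SOX2-ON over CEpiLC, and -0.0033 for SOX2-ON over SOX2-OFF. Against that median, Fgfr1 was lower by 0.29 in SOX2-OFF over CEpiLC, where 17.2% of the chromosome's genes had a smaller fold change, and within 0.02 of it in SOX2-ON over CEpiLC. When the shift of each chromosome was removed in the fit, the SOX2-OFF value turned from 0.33 to -0.27 and the SOX2-ON value went to 0.01. The difference of SOX2-ON from SOX2-OFF, both of the same line, was 0.29 above the chromosome median, and 87.7% of the genes of chromosome 8 had a smaller one. What shifted the chromosome was not tested.

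The genes around Fgfr1 lie on the same chromosome, whose shift was known when Fgfr1 was chosen, so their values only describe it. Of 15 genes tested within 500 kb of Fgfr1, 13 were called higher in SOX2-OFF than in CEpiLC, with a median log2 fold change of 0.63. In SOX2-ON over CEpiLC 10 were called higher, with a median of 0.59. Of all genes, 23.6% and 27.9% were called higher there. On chromosome 8, 95.5% and 96.0% of the well-expressed genes had a log2 fold change above 0. Chromosomes 5, 7 and 13, which carry the other 5 genes, had medians between -0.04 and 0.05 in all 4 comparisons.

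**Figure D2:**
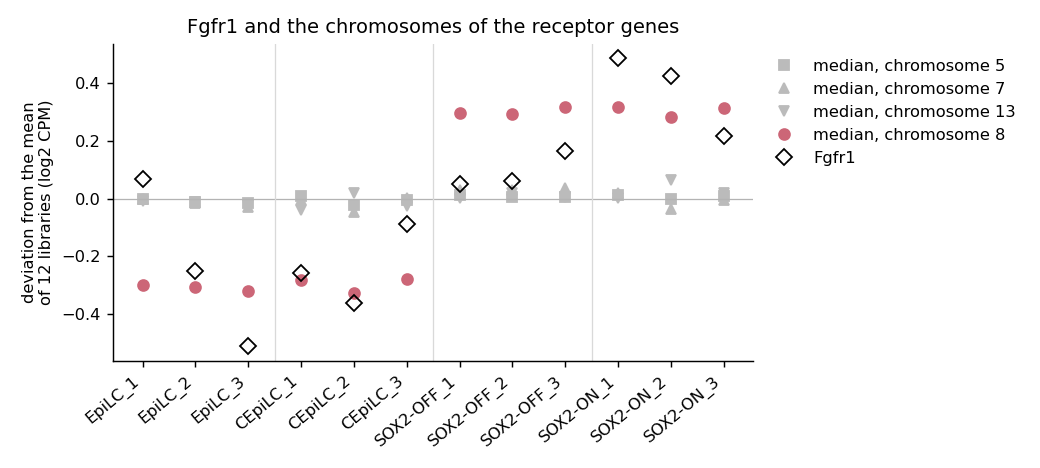
Deviation from the mean of the 12 libraries (log2 CPM) for each library (horizontal axis) of Fgfr1 (open diamonds), of the median gene of chromosome 8 (red circles) and of the median genes of chromosomes 5, 7 and 13 (grey). The chromosome 8 median is near -0.30 in the 6 WT libraries and near 0.30 in the 6 SOX2 TetON libraries, and Fgfr1 lies below it in all 3 SOX2-OFF libraries.

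Fgfr2 differed most between EpiLC and CEpiLC among the 4 kinase receptors. Its level was 49.84, 43.39 and 28.98 TPM in EpiLC and 3.79, 4.24 and 1.65 TPM in CEpiLC. In SOX2-OFF it was 4.81, 5.19 and 4.23 TPM, and in SOX2-ON 13.34, 16.45 and 17.56 TPM. EpiLC lay above all other libraries and SOX2-ON above all SOX2-OFF and CEpiLC libraries. CEpiLC and SOX2-OFF overlapped, by 4.24 TPM in the highest CEpiLC library against 4.23 TPM in the lowest SOX2-OFF library.

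The log2 fold change of Fgfr2 was -3.61 (SE 0.26) between CEpiLC and EpiLC, a 12.2-fold lower level. Fgfr2 was 4.56-fold higher in SOX2-ON than in CEpiLC (log2 fold change 2.19, SE 0.26) and 3.21-fold higher in SOX2-ON than in SOX2-OFF (1.68, SE 0.25). Without SOX2-ON replicate 3 these values were 2.13 and 1.61. The mean SOX2-ON level of 15.8 ± 2.19 TPM (SD, n = 3) remained below that of EpiLC, 40.7 ± 10.7 TPM. Between SOX2-OFF and CEpiLC the value was 0.51 (SE 0.27), and without CEpiLC replicate 3 it was 0.27. In the other comparisons no omission of a library moved the value outside -3.81 to -3.36, 1.95 to 2.38 and 1.61 to 1.78. Of the 550 well-expressed genes of chromosome 7, 1 had a lower fold change than Fgfr2 between CEpiLC and EpiLC. The 3 genes tested within 500 kb of Fgfr2 had fold changes between -0.26 and 0.16 on the log2 scale in all 4 comparisons.

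Fgfr2 was high in the same groups as Sox2, but not in proportion to it. The highest Sox2 levels were in SOX2-ON (187.4 ± 24.0 TPM) and the highest Fgfr2 levels in EpiLC, at 136.98 ± 29.7 TPM of Sox2. SOX2-OFF held at least 1293.41 TPM of endoderm markers and at most 5.19 TPM of Fgfr2. Within SOX2-ON, replicates 1 to 3 held 13.34, 16.45 and 17.56 TPM of Fgfr2 and 615.59, 713.66 and 1501.25 TPM of endoderm markers. Their Sox2 levels were 215.14, 173.24 and 173.82 TPM. The part of Sox2 or of the endoderm marker level in the Fgfr2 values was not tested.

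The make-up of the receptor pool differed between the groups, mainly through Fgfr2. Fgfr2 made up 24.6% to 28.9% of the summed TPM of Fgfr1 to Fgfr4 in EpiLC and 7.20% to 10.5% in SOX2-ON, but 1.44% to 4.22% in CEpiLC and 3.03% to 3.90% in SOX2-OFF. The ratio of Fgfr1 to Fgfr2 in TPM was 2.36 to 2.98 in EpiLC and 8.33 to 12.8 in SOX2-ON. It was 24.1 to 31.4 in SOX2-OFF and 22.4, 26.7 and 68.2 in the 3 CEpiLC libraries, the highest in replicate 3. The summed level of the 4 kinase receptors was 179.74 ± 10.9 TPM in SOX2-ON, 148.73 ± 30.3 in EpiLC, 135.25 ± 3.68 in SOX2-OFF and 106.95 ± 7.24 in CEpiLC (SD, n = 3). Most of each sum is Fgfr1, which lies on chromosome 8. The median log2 fold change of that chromosome was 0.62 in SOX2-OFF and 0.59 in SOX2-ON over CEpiLC. Sums, shares and ratios compared between the lines include this shift, and its part in them was not tested. In bulk RNA a lower level in each cell and fewer cells with the transcript cannot be told apart.

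**Figure D3:**
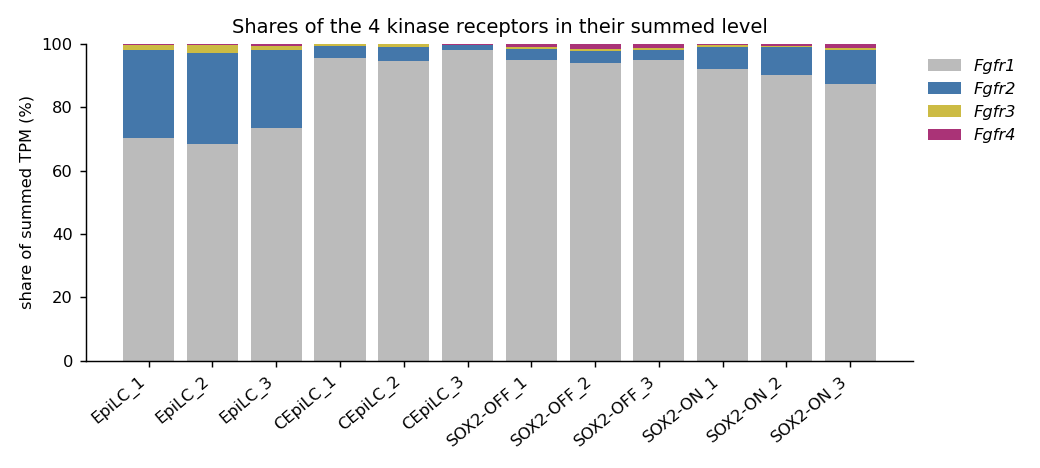
Share of Fgfr1, Fgfr2, Fgfr3 and Fgfr4 in their summed TPM (vertical axis, %), 1 bar for each library. Fgfr2 takes 24.6% to 28.9% in EpiLC and at most 10.5% in any other library, and Fgfr1 at least 68.3% in every library.

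Fgfr3, a receptor best known in cartilage and in the nervous system, was a minor transcript in all groups. Its level was 2.93, 3.7 and 1.59 TPM in EpiLC, 0.6, 0.93 and 0.32 TPM in CEpiLC, 0.88, 0.95 and 0.74 TPM in SOX2-OFF and 0.83, 0.91 and 1.48 TPM in SOX2-ON. All EpiLC libraries lay above all others, whose 3 groups overlapped. Fgfr3 fell 4.26-fold in CEpiLC against EpiLC (log2 fold change -2.09, SE 0.37, adjusted p 0.00057 by edgeR), a comparison in which 20.1% of genes fell. Under all alternatives this adjusted p lay between 1.4e-06 and 0.0038. Fgfr3 did not pass the test in SOX2-OFF against CEpiLC (0.42, SE 0.41, adjusted p 0.418 by edgeR), in SOX2-ON against CEpiLC (0.68, SE 0.39, adjusted p 0.156 by edgeR) or in SOX2-ON against SOX2-OFF (0.26, SE 0.39, adjusted p 0.659 by edgeR). Single libraries moved these values. The first ranged from 0.20 without CEpiLC replicate 3 to 0.77 without CEpiLC replicate 2, and the middle value from 0.37 without SOX2-ON replicate 3 to 1.03 without CEpiLC replicate 2, where the adjusted p was 0.0654 by edgeR. Without SOX2-ON replicate 3, the library with the most endoderm marker RNA in its group, the last value was -0.06.

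Fgfr4 was the rarest of the receptor genes in WT cells. Its level was 0.36, 0.55 and 0.66 TPM in EpiLC (12, 17 and 14 counts) and 0.14, 0.07 and 0.23 TPM in CEpiLC (6, 2 and 4 counts). In SOX2-OFF it was 1.13, 1.98 and 1.9 TPM (30, 58 and 34 counts) and in SOX2-ON 0.68, 1.06 and 1.9 TPM (20, 29 and 51 counts). Every SOX2-OFF and SOX2-ON library lay above every WT library, by 0.68 against 0.66 TPM at the narrowest point, and every EpiLC library above every CEpiLC library.

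Fgfr4 rose 12.3-fold in SOX2-OFF over CEpiLC (log2 fold change 3.62, SE 0.50, adjusted p 5.94e-05 by edgeR) and 8.55-fold in SOX2-ON over CEpiLC (3.10, SE 0.51, adjusted p 0.000193 by edgeR). Both calls held under all alternatives, and without SOX2-ON replicate 3 the latter was 2.64 (adjusted p 0.000675 by edgeR). In these comparisons 23.6% and 27.9% of all genes rose. SOX2-ON and SOX2-OFF overlapped, with a log2 fold change of -0.52 (SE 0.37, adjusted p 0.318 by edgeR) that went to -0.98 (adjusted p 0.0666 by edgeR) without SOX2-ON replicate 3. Fgfr4 fell 3.74-fold in CEpiLC against EpiLC (-1.90, SE 0.56, adjusted p 0.0161 by edgeR). That call rests on few counts, and it was lost without CEpiLC replicate 1 (-1.93, adjusted p 0.0524 by edgeR) or replicate 2 (-1.58, adjusted p 0.0627 by edgeR). All 277 well-expressed genes of chromosome 13 had a smaller fold change than Fgfr4 in both comparisons of the SOX2 TetON line with CEpiLC. Those genes averaged 4 log2 CPM or more and Fgfr4 only 0.54, so they are not a set of like level and the rank of Fgfr4 among them decides nothing. The 25 genes tested within 500 kb of Fgfr4 had median log2 fold changes of 0.01 and 0.08 there. In CEpiLC against EpiLC, where Fgfr4 fell, their median was -0.27, with 13 called lower and 2 higher. Of all genes, 20.1% fell and 22.1% rose in that comparison.

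Klb, the co-receptor gene, separated the lines. It was at 0, 0 and 0.13 TPM in EpiLC (0, 0 and 3 counts) and at 0.02, 0 and 0.11 TPM in CEpiLC (1, 0 and 2 counts), so that no WT library held more than 3 counts. Its level was 10.67, 13.67 and 10.12 TPM in SOX2-OFF (312, 440 and 199 counts) and 5.29, 6.54 and 11.77 TPM in SOX2-ON (171, 197 and 348 counts). The WT and SOX2 TetON libraries did not overlap.

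Set against a floor of 3 counts in the shallowest CEpiLC library, the Klb level was higher by at least 71.6-fold in SOX2-OFF and by at least 47.1-fold in SOX2-ON. The lower bound depends on the depth of that library, CEpiLC replicate 3, and without it was 128-fold and 84.5-fold. No fold is given between EpiLC and CEpiLC, both at the floor. Between SOX2-ON and SOX2-OFF the log2 fold change of Klb was -0.61 (SE 0.29), and -1.01 without SOX2-ON replicate 3. The 11 genes tested within 500 kb of Klb had median log2 fold changes of -0.08 and -0.06 in the comparisons of SOX2-OFF and SOX2-ON with CEpiLC. In each comparison 1 of them was called higher and 3 lower. Of all genes, 23.6% and 27.9% were higher there, and 24.9% and 28.6% lower.

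Klb and Fgfr4, which encode partners in the same receptor complex, thus had their highest levels in the same libraries. In SOX2-ON both were highest in replicate 3, where the endoderm markers were highest too. Gata6, an endoderm transcription factor, was at 27.89, 33.19 and 69.65 TPM in the 3 SOX2-ON replicates and at 19.47, 22.95 and 21.01 TPM in SOX2-OFF. Cubn, an endocytic receptor of visceral endoderm, was at 24, 34.22 and 77.41 TPM in SOX2-ON and at 100.09, 80.64 and 70.5 TPM in SOX2-OFF, against at most 0.35 TPM in any WT library. The part of the endoderm marker level in the values of Klb and Fgfr4 was not tested.

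**Figure D4:**
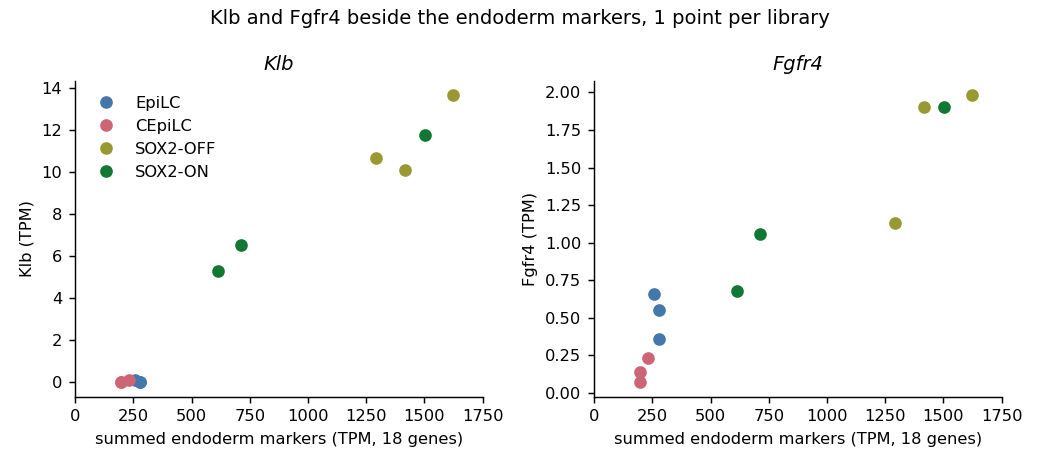
Level of Klb (left) and Fgfr4 (right) in TPM against the summed TPM of 18 endoderm markers, 1 point for each library, coloured by group. SOX2-ON replicate 3, at 1501.25 TPM of markers, lies with the SOX2-OFF libraries in both panels, and the WT libraries lie at or below 277.79 TPM of markers.

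Fgfrl1, the receptor without a kinase, stayed within a narrow range. Its level was 9.59, 9.98 and 11.15 TPM in EpiLC, 12.56, 11.94 and 17.13 TPM in CEpiLC, 8.58, 9.42 and 9.45 TPM in SOX2-OFF and 13.46, 12.4 and 12.25 TPM in SOX2-ON. CEpiLC and SOX2-ON overlapped, both lay above EpiLC, and all SOX2-OFF libraries lay below all others, by 9.45 against 9.59 TPM at the narrowest point.

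Fgfrl1 fell 1.46-fold in SOX2-OFF against CEpiLC (log2 fold change -0.54, SE 0.14, adjusted p 0.00698 by edgeR). The call held under all alternatives, with adjusted p values from 0.00242 to 0.0339, although the value shrank to -0.36 (adjusted p 0.0214 by edgeR) without CEpiLC replicate 3, the highest library. Fgfrl1 rose 1.34-fold in CEpiLC over EpiLC (0.42, SE 0.14, adjusted p 0.0291 by edgeR), a call that was lost without CEpiLC replicate 3 (0.24, adjusted p 0.119 by edgeR), EpiLC replicate 1 (0.37, adjusted p 0.0966 by edgeR) or EpiLC replicate 2 (0.40, adjusted p 0.0849 by edgeR). CEpiLC replicate 3 also had the highest streak marker level, with Msgn1, a presomitic mesoderm factor, at 363.77 TPM against 64.49 and 94.98 TPM in replicates 1 and 2, and the lowest Fgfr2 and Fgfr3 levels of its group. SOX2-ON did not pass the test against SOX2-OFF (0.40, SE 0.14, adjusted p 0.0546 by edgeR) although the groups did not overlap. That difference did pass with library size alone (adjusted p 0.0478 by edgeR) and with DESeq2 (adjusted p 0.0443). It also passed with a replicate block (adjusted p 0.0418 by edgeR) and in the fit of the 6 libraries compared (adjusted p 0.0227 by edgeR). Without SOX2-ON replicate 3 the difference was 0.44 (adjusted p 0.0578 by edgeR). SOX2-ON did not pass against CEpiLC either (-0.15, SE 0.14, adjusted p 0.393 by edgeR), where the value turned to 0.04 without CEpiLC replicate 3 and was -0.09 without SOX2-ON replicate 3.

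**Figure D5:**
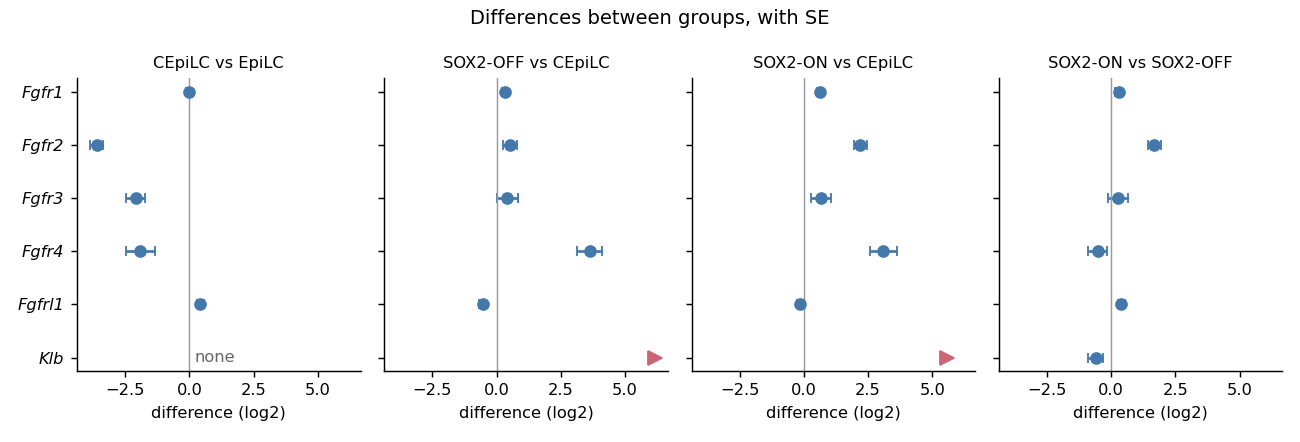
Log2 fold change with its SE (horizontal axis) of each gene in the 4 comparisons. Red arrowheads mark the lower bounds of Klb over CEpiLC, at least 71.6-fold in SOX2-OFF and at least 47.1-fold in SOX2-ON, and no value is given for Klb between CEpiLC and EpiLC. Fgfr2, Fgfr3 and Fgfr4 lie left of 0 in CEpiLC against EpiLC, and Fgfr4 and Klb lie farthest right in both comparisons of the SOX2 TetON line with CEpiLC.

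Within the family, levels over the 12 libraries ran together in some pairs. The Pearson correlation of log2 CPM, given as a description over libraries that share their groups, was 0.90 for Fgfr2 with Fgfr3 and 0.86 for Fgfr4 with Klb. It was 0.73 for Fgfr1 with Klb, 0.55 for Fgfr1 with Fgfr4, 0.04 for Fgfr1 with Fgfr2 and -0.60 for Fgfr3 with Fgfrl1. The Fgfr1 values include the shift of chromosome 8 between the lines, and its part in these correlations was not tested. Among 10872 genes that averaged 2 log2 CPM or more, those closest to Fgfr2 were Cnn3 (0.98), Akirin2 (0.98) and Hltf (0.97). The closest to Fgfr3 were Jmjd1c (0.94), Samd10 (0.93) and S100pbp (0.92), and the closest to Fgfr4 were F3 (0.97), Anxa4 (0.96) and Serpinb6a (0.95). F3 averaged 7.50, 3.74, 24.2 and 23.1 TPM in EpiLC, CEpiLC, SOX2-OFF and SOX2-ON, the order of Fgfr4. Closest to Klb were Cdkn2a (0.995), Dppa5a (0.99) and Zfp384 (0.99), which like Klb differed mainly between the lines, with Cdkn2a at 6.31 and 7.01 TPM in EpiLC and CEpiLC and at 92.8 and 83.2 TPM in SOX2-OFF and SOX2-ON. Fgfr1 was closest to Zbtb33 (0.93), Pole4 (0.92) and Ppcs (0.91), and Fgfrl1 to Cetn2 (0.93), Ssbp2 (0.90) and Fam210b (0.88). Zfp384, Anxa4 and Pole4 lie on chromosome 6, whose median log2 fold change was 0.57 both in SOX2-OFF and in SOX2-ON over CEpiLC. The genes named as closest were picked for their correlation, so a pattern shared with the member follows from the choice.

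Some ligand genes were also called between the groups. Of all genes, 42.2%, 48.5%, 56.5% and 28.8% were called in the 4 comparisons, in the order used below. These shares stand beside the counts of this list and of those that follow. Of 12 FGF ligand genes tested, 4 were called higher and 1 lower in CEpiLC than in EpiLC (median log2 fold change 1.00). Fgf5, a ligand of the post-implantation epiblast, fell from 79.5 ± 4.64 to 5.19 ± 3.62 TPM (-3.95, SE 0.32, adjusted p 9e-07 by edgeR), and Fgf8, the ligand of the primitive streak, was at least 133-fold higher in CEpiLC, at 62.1 ± 23.1 TPM. Against CEpiLC, 2 ligands were higher and 7 lower in SOX2-OFF, and 1 higher and 6 lower in SOX2-ON. Fgf10, which signals through the IIIb form of Fgfr2, rose in both (2.82, SE 0.48, adjusted p 0.000305 by edgeR in SOX2-OFF, and 2.68, SE 0.47, adjusted p 0.000343 by edgeR in SOX2-ON). Fgf8 fell by 4.01 in SOX2-ON (SE 0.33, adjusted p 5.59e-07 by edgeR). Between SOX2-ON and SOX2-OFF none was higher and 3 were lower. The ligand medians in these 3 comparisons were -1.14, -1.39 and -0.0017. Fgf15, singled out after its values were seen because it acts through KLB, averaged 2.23, 4.84, 1.28 and 3.68 TPM in EpiLC, CEpiLC, SOX2-OFF and SOX2-ON, and fell in SOX2-OFF against CEpiLC (-1.78, SE 0.61, adjusted p 0.0269 by edgeR).

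Cofactors (Klotho relatives, heparan sulfate proteoglycans, their enzymes, FLRT proteins and secreted FGF-binding proteins) moved in both directions. Of 22 tested, 12 were called higher and 5 lower in CEpiLC than in EpiLC. Glypican gene Gpc4 (-1.61, SE 0.14, adjusted p 1.22e-06 by edgeR), syndecan gene Sdc4 (-1.65, SE 0.17, adjusted p 7.15e-06 by edgeR) and Hs6st1, a heparan sulfate sulfotransferase gene (-1.50, SE 0.10, adjusted p 9.34e-08 by edgeR), were among those that fell, as Fgfr3 did. Against CEpiLC, 2 cofactors were higher and 11 lower in SOX2-OFF, and 4 higher and 9 lower in SOX2-ON. Sdc4 rose from 7.31 ± 1.80 TPM in CEpiLC to 32.6 ± 3.81 in SOX2-OFF and 71.5 ± 14.3 in SOX2-ON (2.15 and 3.22, SE 0.17 each, adjusted p 6.68e-07 and 2.1e-08 by edgeR). Between SOX2-ON and SOX2-OFF 5 were higher and 5 lower. The cofactor medians in the 4 comparisons were 0.39, -0.34, -0.31 and 0.0036. Fgfbp3, which encodes a secreted carrier of FGF, fell in SOX2-OFF against CEpiLC (-2.94, SE 0.37, adjusted p 2.86e-05 by edgeR). Gpc4 rose (1.46, SE 0.14, adjusted p 8.22e-06 by edgeR) and Gpc3 fell (-1.64, SE 0.24, adjusted p 0.000234 by edgeR) in SOX2-ON.

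All 24 adaptor and kinase genes were tested, and 3 were called higher and 7 lower in CEpiLC than in EpiLC. Against CEpiLC, 10 were higher and 4 lower in SOX2-OFF, and 11 higher and 4 lower in SOX2-ON, while 4 were higher and 3 lower in SOX2-ON than in SOX2-OFF. Without SOX2-ON replicate 3 the latter counts were 1 higher and 3 lower. The medians of the relay genes were -0.07, 0.16, 0.16 and 0.02. Gab1, an adaptor of the receptor complex, rose from 36.0 ± 0.328 TPM in CEpiLC to 98.9 ± 12.2 in SOX2-OFF and 127.42 ± 16 in SOX2-ON (1.47 and 1.79, SE 0.09 each, adjusted p 1.29e-07 and 1.67e-08 by edgeR). It lies on chromosome 8, whose median was 0.62 and 0.59. Grb2 fell in SOX2-OFF (-0.69, SE 0.05, adjusted p 3.93e-07 by edgeR) and lies on chromosome 11, where the median log2 fold change was -0.51. The main adaptor gene Frs2, named for its role after its values were seen, had log2 fold changes of -0.04, 0.15, 0.09 and -0.06 in the 4 comparisons (SE 0.07 each, adjusted p 0.105 to 0.708 by edgeR).

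Targets and feedback inhibitors of FGF-ERK signalling moved in both directions. Of 15, 7 were called higher and 3 lower in CEpiLC than in EpiLC, 4 higher and 3 lower in SOX2-OFF than in CEpiLC, 7 higher and 4 lower in SOX2-ON than in CEpiLC, and 5 higher and 4 lower in SOX2-ON than in SOX2-OFF. Without SOX2-ON replicate 3, 5 were higher and 5 lower in SOX2-ON than in CEpiLC. Their medians were 0.38, 0.01, 0.42 and 0.04. Il17rd, a membrane inhibitor of the pathway, rose in CEpiLC over EpiLC (1.83, SE 0.13, adjusted p 3.27e-07 by edgeR), as did Spred1 (1.28, SE 0.07, adjusted p 3.66e-08 by edgeR). Dusp6, an ERK phosphatase gene, was at 66.3 ± 7.08 TPM in EpiLC, 108.01 ± 34.4 in CEpiLC and 182.2 ± 27 in SOX2-OFF, and rose in SOX2-OFF over CEpiLC (0.78, SE 0.20, adjusted p 0.00696 by edgeR). Spry2 was higher in SOX2-ON than in SOX2-OFF (1.21, SE 0.19, adjusted p 0.000354 by edgeR).

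Some splicing factors that act on the alternative exons of Fgfr1 to Fgfr3 were also called between the groups. The shares of all genes called were 42.2%, 48.5%, 56.5% and 28.8%, in the order used below. Gene-level values do not separate the splice forms of the receptors, and a link of these forms to the splicing factors was not tested. Of 7, none was called higher and 3 lower in CEpiLC than in EpiLC, 3 higher and 2 lower in SOX2-OFF than in CEpiLC, 3 higher and 1 lower in SOX2-ON than in CEpiLC, and 1 higher and none lower in SOX2-ON than in SOX2-OFF. Their medians were -0.26, 0.05, 0.11 and 0.006. Esrp1, an epithelial factor that favours the IIIb exon, fell from 54.7 ± 6.53 to 28.2 ± 4.60 TPM between EpiLC and CEpiLC (-0.94, SE 0.14, adjusted p 0.000128 by edgeR). It rose in SOX2-OFF (0.63, SE 0.14, adjusted p 0.00203 by edgeR) and in SOX2-ON (0.71, SE 0.14, adjusted p 0.000629 by edgeR) over CEpiLC. Esrp2, on chromosome 8, rose from 1.96 ± 0.803 TPM in CEpiLC to 9.31 ± 1.51 in SOX2-OFF and 8.86 ± 1.18 in SOX2-ON (2.32 and 2.19, SE 0.25 each, adjusted p 7.25e-06 and 8.03e-06 by edgeR).

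Other receptor tyrosine kinases give a frame for the FGF receptors. Of 28 tested, 7 were called higher and 8 lower in CEpiLC than in EpiLC, 6 higher and 14 lower in SOX2-OFF than in CEpiLC, 9 higher and 10 lower in SOX2-ON than in CEpiLC, and 10 higher and 3 lower in SOX2-ON than in SOX2-OFF. Their medians were -0.19, -0.59, -0.07 and 0.34. Pdgfra, a receptor of mesoderm and primitive endoderm, rose in CEpiLC over EpiLC (4.21, SE 0.66, adjusted p 0.000229 by edgeR), where Fgfr3 and Fgfr4 fell. Kit rose in SOX2-ON over SOX2-OFF, from 13.2 ± 2.74 to 41.5 ± 5.02 TPM (1.59, SE 0.17, adjusted p 1.85e-05 by edgeR), beside a log2 fold change of 1.68 for Fgfr2. Flt1, a VEGF receptor gene on chromosome 5, rose in SOX2-ON over CEpiLC (3.10, SE 0.20, adjusted p 7.12e-08 by edgeR), and Ror1, a WNT receptor gene, fell in CEpiLC against EpiLC (-2.37, SE 0.23, adjusted p 3.83e-06 by edgeR). Without SOX2-ON replicate 3, the SOX2-ON calls on Fgf8, Fgf10, Sdc4, Gpc3, Gpc4, Gab1, Spry2, Esrp1, Esrp2, Kit and Flt1 were all kept.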

How the data were processed

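The authors trimmed 76 bp single-end strand-specific reads with cutadapt 1.16, aligned them with STAR 2.5.2a to mm10 and quantified RefSeq genes with RSEM 1.3.0. The deposited table holds expected counts and TPM per gene and library, neither pooled over replicates. The authors compared conditions with DESeq2 1.16.1.

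Here expected counts were rounded to whole numbers, filtered with filterByExpr (minimum count 10) and fitted with edgeR 4.0.16 (TMM scaling, quasi-likelihood test, R 4.3.3) over 12 libraries and 14196 genes. p-values were Benjamini-Hochberg adjusted over all genes tested and called at 0.05. SE was derived from the F statistic. Levels are the deposited TPM. Fold bounds use a floor of 3 counts per library and cover counting error only. Chromosome medians use genes averaging 4 log2 CPM or more. In R, DESeq2 1.42.0 and limma 3.58.1 served as alternatives, with other scalings, filters, a chromosome offset, a replicate block, fits of 6 libraries and omission of each library. The models were tested on simulated data.

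Members and lists were chosen with earlier results of these data known. Named besides the members were up to 3 called genes per list and comparison with the largest fold change and an average of 2 log2 CPM or more, cell type markers, and the 3 genes most correlated with each member (log2 CPM, prior count 2). Not every gene this rule allows is printed. A gene of the lists is not reported here. Gene positions and promoters came from RefSeq (GRCm38.p6, 97.3% of genes matched). Replicates are biological replicates by their labels, and the paper gives at least 3 independent experiments for its statistics. No pair of replicates was alike within sampling noise. If they are not separate cultures, p-values measure technical spread. Same-numbered CEpiLC and EpiLC libraries deviated together (correlations of 0.12, 0.13 and 0.10, from the values, not the labels), and the replicate block changed no call of the 3 tested receptor genes between them.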

Additional observations from a re-analysis of the deposited data

How the results depend on the processing

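The numbers of genes called stayed within 1.5 times their main values under all alternatives. Under the alternatives that keep all libraries of a comparison, 103 values of the 3 tested receptor genes kept their direction and side of the threshold, and 83 values of Fgfr1, Fgfr2 and Klb, which have no test, moved by less than the spread between replicates. The exceptions were these. With the shift of each chromosome removed, Fgfr1 in SOX2-OFF over CEpiLC reversed to -0.27, and in SOX2-ON over CEpiLC it went to 0.014, by construction of that setting. Fgfrl1 in CEpiLC over EpiLC lost its call in the fit of the 6 libraries compared (0.42, adjusted p 0.0666 by edgeR). Fgfrl1 in SOX2-ON over SOX2-OFF passed the threshold with library size alone (0.42, adjusted p 0.0478 by edgeR), DESeq2 (0.40, adjusted p 0.0443 by that tool), the 6 libraries compared (0.40, adjusted p 0.0227 by edgeR) and the replicate block (0.40, adjusted p 0.0418 by edgeR). The cause was not tested. The replicate block, in which all 6 libraries of each comparison correlated best with their own number, changed no other call of a receptor gene. Without each library in turn, Fgfr3 in SOX2-ON over SOX2-OFF ranged from -0.058 to 0.41, Fgfr4 in CEpiLC over EpiLC from -2.21 to -1.58, Fgfrl1 in CEpiLC over EpiLC from 0.24 to 0.54 and in SOX2-ON over CEpiLC from -0.26 to 0.038. The lower bounds of Klb ranged from 64.7 to 128 in SOX2-OFF and from 35.7 to 84.5 in SOX2-ON. Fgfr3, Fgfr4 and, in WT libraries, Klb rest on few counts.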
